A study of Mus musculus with 34 samples.

Results

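The difference between the cell lines NaJa-G and NaJa-D in their response to 1 day of the BRAF inhibitor encorafenib was taken from 12 of the 34 RNA-seq libraries of the series. These were the 3 encorafenib and the 3 DMSO libraries of either line at day 1. For each of the 14107 genes of the count table, all of which were tested, the log2 fold change of encorafenib against DMSO in NaJa-D was subtracted from that in NaJa-G. A difference above 0 is therefore a response that lies higher in NaJa-G, and a difference below 0 a response that lies higher in NaJa-D. Genes were then sorted by the direction of the response in each line, with attention to those that moved in opposite directions or in 1 line alone.

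NaJa-D and NaJa-G are mouse colorectal cancer lines on the C57BL/6N background. They share an activated Braf V600E allele, the Trp53 R172H mutation, an Apc gene inactivated by loss of an exon and the VillinCreERT2 transgene. Their Cre recombinase was driven by the gut epithelial Villin promoter and switched on by 4-hydroxytamoxifen in colon organoids, which were transplanted into the colon of recipient mice. Each line is a single isolate grown from the peritoneal lavage of 1 recipient, so a difference between the lines is a difference between 2 isolates. The 4 groups were NaJa-D with DMSO, NaJa-D with 0.5 µM encorafenib, NaJa-G with DMSO and NaJa-G with 0.5 µM encorafenib, all at day 1 with 3 libraries each. Nothing in the labels states that the replicates came from separate cultures, so the spread behind the p-values may be technical. That spread was estimated per gene over the replicates of all 12 groups of the series, not of these 4 alone. The libraries held 47072398 to 80121299 counts, given below as CPM, counts relative to library size after TMM scaling. Intervals and p-values come from the spread between replicates, and every adjusted p is from limma with Benjamini-Hochberg adjustment over all genes.

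A pair of libraries had to be weighed before any result. NaJa-D DMSO day 1 replicate 3, so named by its title, has NaJa-G in its cell line field and was kept under its title, and across genes its log2 CPM correlated at 0.995 with the other NaJa-D DMSO libraries and at 0.917 to 0.92 with those of NaJa-G. NaJa-D encorafenib day 1 replicate 3 stood apart from its group. Its counts differed from those of replicates 1 and 2 by 86.6 and 67.9 times the variance of counting noise. The value was 11.1 between replicates 1 and 2, 12.4 to 25.2 in NaJa-D DMSO and 4.3 to 12 in NaJa-G encorafenib. NaJa-G DMSO replicate 1 also stood apart, with 48.3 and 46.7 against replicates 2 and 3 of its group, which differed by 3.67. Its deviation from its group correlated at 0.647 with that of NaJa-D encorafenib replicate 3, and a shared cause was not tested. Values without the pair of NaJa-D libraries numbered 3, called doubted below, are given beside the counts and genes that rest on them. The epithelial markers were uneven between the lines. Vil1, the actin bundler of gut microvilli whose promoter drove Cre, had 6.36 ± 0.243 CPM in NaJa-D and 0.548 ± 0.112 CPM in NaJa-G in DMSO (SD, n = 3), so this defining marker was near 0 in NaJa-G. Keratin 8 (Krt8) had 1282 ± 56.7 and 908 ± 131 CPM. The mesenchymal markers Zeb1 and Cdh2 had 1.46 ± 0.194 and 71.5 ± 6.46 CPM in NaJa-D and 31 ± 0.876 and 160 ± 8.91 CPM in NaJa-G. Of the markers of cells that a lavage could hold, 4 of 12 leukocyte genes were in the table and summed to 24.2 to 48.4 CPM per library, with Ptprc, Adgre1 and Cd3e among those not in it. For fibroblasts 7 of 12 were in the table, with a sum of 2.74 to 4.44 CPM in NaJa-D, 58.4 to 79 CPM in NaJa-G with DMSO and 96.5 to 112 CPM in NaJa-G with encorafenib. The 4 endothelial genes summed to 2.71 to 8.6 CPM. The 7 of 12 mesothelial genes summed to 1361 to 1403 and 3212 to 3491 CPM in NaJa-G and to 2239 to 2628 and 4896 to 5292 CPM in NaJa-D, in DMSO and in encorafenib, a list that includes the epithelial keratin Krt19 and lacks Wt1 and Calb2 here. In bulk RNA, fewer cells of a type and less RNA per cell cannot be told apart, and the part of other cells in the results was not tested.

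BRAF is a kinase that activates MEK and, through it, ERK. The V600E form signals without an upstream growth factor. ERK switches on transcription factors of the AP-1 and ETS families, growth genes such as Myc and the D-type cyclins, and also its own brakes, the DUSP phosphatases and the Sprouty and SPRED proteins. Encorafenib binds the mutant kinase. In colorectal cancer cells the loss of these brakes is known to let receptor tyrosine kinases such as EGFR signal again.

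The response differed between the lines for 5134 of 14107 genes (36.4%) at an adjusted p of 0.01. The difference was above 0 for 2850 genes (20.2%) and below 0 for 2284 (16.2%). The response itself was called for 9026 genes (64.0%) in NaJa-G and 6335 (44.9%) in NaJa-D, and the typical size of a change, the median of absolute log2 values, was 0.47 in NaJa-G and 0.31 in NaJa-D. Of the 5134 genes, 1970 (38.4%) moved the same way in both lines with a larger change in NaJa-G, and 74 (1.44%) with a larger change in NaJa-D. A response in NaJa-G alone was called for 2316 genes (45.1%) and in NaJa-D alone for 426 (8.3%). Opposite responses were called for 190 genes. Of these, 127 (2.47%) rose in NaJa-G and fell in NaJa-D, and 63 (1.23%) rose in NaJa-D and fell in NaJa-G. The remaining 158 genes differed without a called response in either line. In encorafenib the NaJa-D libraries spread more, with a median SD of log2 CPM of 0.147 against 0.068 in NaJa-G. In DMSO they spread less, with 0.0982 against 0.115 in NaJa-G. The part of the spread in the smaller number of NaJa-D calls was not tested. With both doubted libraries left out, the genes with a response in NaJa-D alone numbered 930 and the opposite genes 239 and 208. Scaling by library size only moved the median difference of all genes by -0.13, and then 2037 of 5068 genes (40.2%) lay above 0, against 55.5% with TMM scaling.

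**Figure D1:**
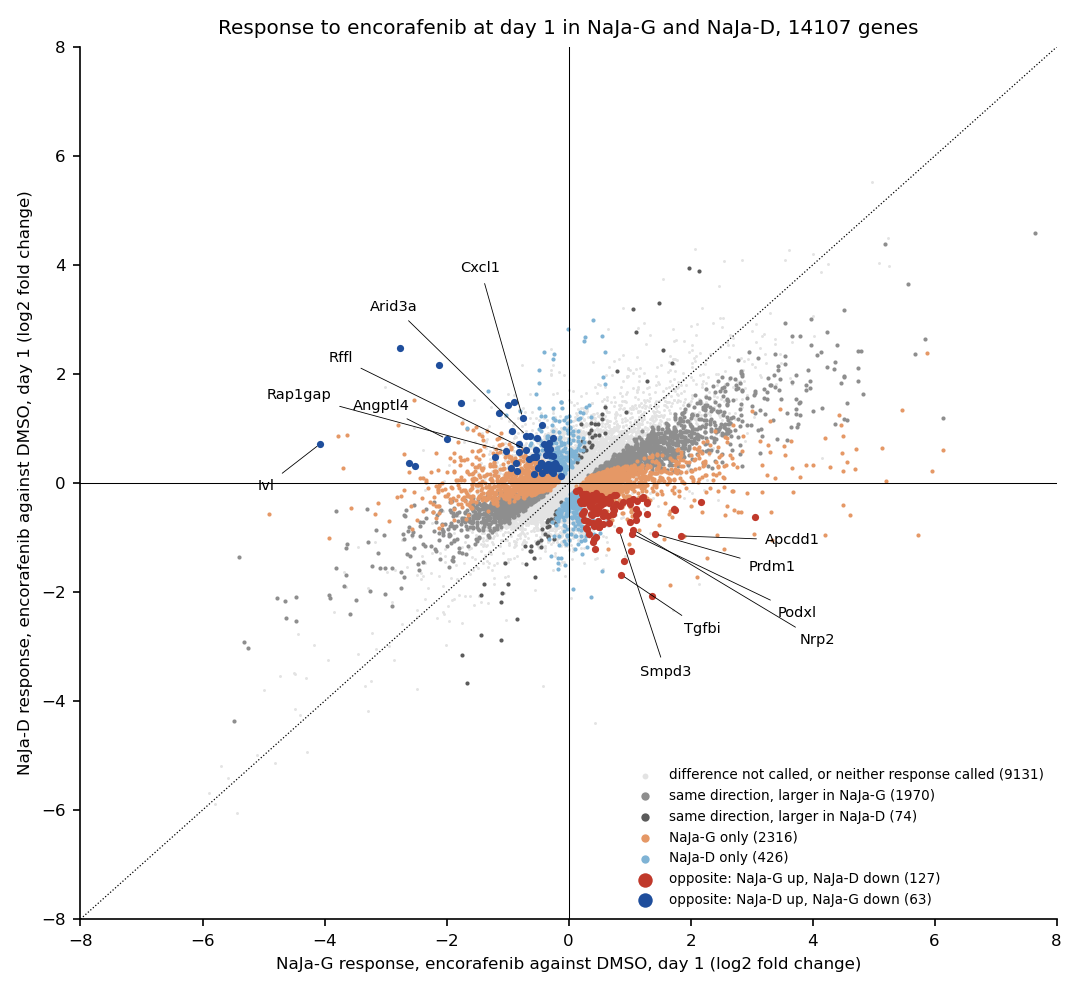
Each of the 14107 genes is a point, with its log2 fold change of encorafenib against DMSO at day 1 in NaJa-G on the x axis and in NaJa-D on the y axis. Colours mark the classes of genes whose responses differed, and the opposite genes lie in the lower right (127, up in NaJa-G) and the upper left (63, up in NaJa-D).

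The 127 genes that rose in NaJa-G and fell in NaJa-D were mostly moderate in size, with a median log2 fold change of 0.45 in NaJa-G and -0.37 in NaJa-D and differences from 0.29 to 3.69. The difference was at least 1 for 60 of them. Encorafenib and DMSO libraries did not overlap in either line for 97, and over all genes such separation in opposite directions held for 390 (2.76%), while treatments were apart for 73.5% of genes in NaJa-G and 54.9% in NaJa-D. The 6 genes with the largest response in their weaker line, chosen among genes without overlap, were Apcdd1, Podxl, Prdm1, Nrp2, Tgfbi and Smpd3. They kept this class in each of 23 alternative fits. With both doubted libraries left out, 121 of the 127 kept it, and with scaling by library size only 87 did. Without NaJa-D encorafenib replicate 1, 79 kept it, and with only the 12 compared libraries in the fit 63 did.

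Apcdd1 (ENSMUSG00000071847) encodes a membrane-bound inhibitor of WNT signalling. It had 34.3, 30.7 and 29.5 CPM in DMSO and 110, 121 and 109 CPM in encorafenib in NaJa-G, against 14.2, 17.6 and 17.6 CPM in DMSO and 7.66, 8.61 and 8.95 CPM in encorafenib in NaJa-D. The encorafenib libraries were the high ones in NaJa-G and the low ones in NaJa-D, and the ranges of the 4 groups did not overlap. The log2 fold change was 1.85 in NaJa-G and -0.97 in NaJa-D, a difference of 2.81 (SE 0.14, adjusted p = 2.85e-15). Podxl (ENSMUSG00000025608, chromosome 6, 31519488 to 31563981, GRCm38) encodes podocalyxin, a charged sialomucin that keeps membranes apart. In NaJa-G its libraries had 215, 198 and 193 CPM in DMSO and 418, 401 and 423 CPM in encorafenib, and in NaJa-D 201, 220 and 231 CPM in DMSO and 105, 111 and 125 CPM in encorafenib. Levels rose in NaJa-G by 1.04 on the log2 scale and fell in NaJa-D, with a log2 fold change of -0.93 and a difference of 1.97 (SE 0.10, adjusted p = 6.75e-15). Prdm1 (ENSMUSG00000038151, chromosome 10, 44437177 to 44528501, GRCm38) encodes BLIMP1, a zinc finger repressor that holds back the adult programme in the fetal gut. Counts were 8.56, 7.61 and 7.52 CPM in DMSO and 20.4, 21.8 and 20.7 CPM in encorafenib in NaJa-G, against 14.5, 15 and 12.5 CPM in DMSO and 7.32, 8.2 and 6.52 CPM in encorafenib in NaJa-D. All 3 encorafenib libraries lay above DMSO in NaJa-G and all 3 below it in NaJa-D. The log2 fold changes of 1.41 in NaJa-G and -0.93 in NaJa-D gave a difference of 2.34 (SE 0.13, adjusted p = 7.96e-14).

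Nrp2 (ENSMUSG00000025969, chromosome 1, 62703285 to 62818695, GRCm38) encodes neuropilin 2, a co-receptor for semaphorins and VEGF-C. It had 213, 204 and 200 CPM in DMSO and 432, 431 and 425 CPM in encorafenib in NaJa-G, against 215, 224 and 248 CPM in DMSO and 114, 124 and 142 CPM in encorafenib in NaJa-D. Again the drug-treated libraries were the high ones in NaJa-G and the low ones in NaJa-D. The difference of the log2 fold changes (1.06 and -0.86) was 1.92 (SE 0.10, adjusted p = 1.67e-14). Tgfbi (ENSMUSG00000035493, chromosome 13, 56609523 to 56639562, GRCm38) encodes a secreted matrix protein that TGF-beta induces. NaJa-G had 28.5, 29.7 and 27.7 CPM in DMSO and 49, 54.8 and 51.7 CPM in encorafenib, and NaJa-D had 15.6, 20.9 and 21 CPM in DMSO and 5.13, 6.27 and 6.54 CPM in encorafenib. The fall in NaJa-D was the larger part of this difference, with log2 fold changes of 0.86 in NaJa-G and -1.68 in NaJa-D and a difference of 2.53 (SE 0.16, adjusted p = 3.72e-13). Smpd3 (ENSMUSG00000031906, chromosome 8, 106252548 to 106337988, GRCm38) encodes neutral sphingomyelinase 2, which makes ceramide. Its values were 2.13, 1.86 and 1.81 CPM in DMSO and 3.56, 3.26 and 3.58 CPM in encorafenib in NaJa-G, against 16, 18.3 and 16.5 CPM in DMSO and 8.84, 9.35 and 9.68 CPM in encorafenib in NaJa-D. The difference was 1.69 (SE 0.16, adjusted p = 1.42e-09), from log2 fold changes of 0.83 in NaJa-G and -0.87 in NaJa-D.

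Further members of the gene lists fell in the same class. Among receptors and regulators of growth, Axl (0.40 and -0.73), Ror1 (1.28 and -0.35) and Fgfr1 (0.26 and -0.52), all receptor tyrosine kinases, rose in NaJa-G and fell in NaJa-D, with the log2 fold change of NaJa-G given first. For Axl the libraries had 364, 299 and 294 CPM in DMSO and 412, 414 and 431 CPM in encorafenib in NaJa-G, against 44, 45.6 and 48.8 CPM in DMSO and 23.5, 26.1 and 35.6 CPM in encorafenib in NaJa-D. Cyclin D1 (Ccnd1), which drives entry into the cell cycle, had 912, 768 and 757 CPM in DMSO and 1326, 1278 and 1287 CPM in encorafenib in NaJa-G, against 607, 542 and 516 CPM in DMSO and 404, 397 and 525 CPM in encorafenib in NaJa-D. Its log2 fold change was 0.68 in NaJa-G and -0.33 in NaJa-D, a difference of 1.02 (SE 0.11, adjusted p = 3.8e-08), and in NaJa-D encorafenib replicate 3 lay within the DMSO range. Of the exonic bases of Ccnd1 23.4% overlap LTO1 on the other strand, and the use of strand in counting was not given in the sources used here. WNT pathway genes in this class were the antagonist Dkk2 (1.74 and -0.49), the receptor Fzd7 (0.67 and -0.73) and the target Tnfrsf19 (0.34 and -0.71). The matrix genes were collagen Col6a3 (0.91 and -1.43) and the laminins Lama3 (0.46 and -0.76) and Lamc1 (1.12 and -0.33). Others were the MYC antagonist Mxd1 (0.37 and -0.56), the differentiation factor Klf4 (0.44 and -0.27), the stress-responsive Ndrg1 (2.17 and -0.35), the lipid desaturase Scd1 (0.78 and -0.38), the mTOR inhibitor Deptor (0.31 and -0.69) and the surface antigen Ly6a, also called Sca-1 (0.43 and -0.49).

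For some of the opposite genes the class depended on the fit. The BMP pseudoreceptor Bambi (0.42 and -1.02) kept this class in 14 of 23 fits, the chaperone Calr (0.28 and -0.30) in 14, the actin cross-linker Flna (0.26 and -0.21) in 15, the p53 target Perp (0.26 and -0.33) in 17 the phagocytosis checkpoint Cd47 (0.28 and -0.28) in 20 and Deptor, given above, in 19. The difference between the lines was above 0 in all 23 fits for each of these genes.

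The 63 genes that rose in NaJa-D and fell in NaJa-G had a median log2 fold change of 0.44 in NaJa-D and -0.46 in NaJa-G, with differences from -5.23 to -0.25 and 32 of at least 1 in size. Libraries did not overlap in either line for 54, where such separation held for 390 of all genes (2.76%), both directions of opposite response together. Both responses had to be called for this class, so the separation is no further test. The 6 named by the same rule were Angptl4, Cxcl1, Ivl, Arid3a, Rffl and Rap1gap. With both doubted libraries left out 51 of the 63 kept the class, and without NaJa-D DMSO replicate 3 alone 35 did. With only the 12 compared libraries in the fit 37 kept it. All 63 kept a called difference with both left out.

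Angptl4 (ENSMUSG00000002289, chromosome 17, 33773750 to 33781830, GRCm38) encodes a secreted inhibitor of lipoprotein lipase. It had 11.9, 10.2 and 10.2 CPM in DMSO and 2.66, 2.62 and 2.77 CPM in encorafenib in NaJa-G, against 9.99, 10.2 and 10.7 CPM in DMSO and 16.8, 16.8 and 20.9 CPM in encorafenib in NaJa-D. Encorafenib libraries were the low ones in NaJa-G and the high ones in NaJa-D. The log2 fold change was 0.81 in NaJa-D, and the difference was -2.81 (SE 0.16, adjusted p = 7.22e-14). Cxcl1 (ENSMUSG00000029380, chromosome 5, 90891241 to 90893115, GRCm38) encodes a chemokine that draws neutrophils. Its NaJa-G libraries had 4.46, 6.4 and 5.64 CPM in DMSO and 2.79, 3.54 and 3.32 CPM in encorafenib and its NaJa-D libraries 4.42, 5.77 and 4.71 CPM in DMSO and 13.6, 13 and 7.76 CPM in encorafenib. The difference was -1.95 (SE 0.31, adjusted p = 9.61e-06), but the fall in NaJa-G, with a log2 fold change of -0.75, was the weaker part, NaJa-D encorafenib replicate 3 lay below the other treated libraries, and the class was lost in 5 of 23 fits. Ivl (ENSMUSG00000049128, chromosome 3, 92570902 to 92573735, GRCm38) encodes involucrin, a protein of the cornified envelope of squamous cells. Values were 6.37, 6.75 and 7.6 CPM in DMSO and 0.593, 0.383 and 0.263 CPM in encorafenib in NaJa-G, against 9.42, 10.5 and 11 CPM in DMSO and 18.4, 17.6 and 14.8 CPM in encorafenib in NaJa-D. The NaJa-G libraries fell to the lowest of the 4 groups, with log2 fold changes of -4.07 in NaJa-G and 0.72 in NaJa-D and a difference of -4.80 (SE 0.24, adjusted p = 9.1e-15).

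Arid3a (ENSMUSG00000019564, chromosome 10, 79927043 to 79955018, GRCm38) encodes a DNA-binding protein of the ARID family. It had 5.59, 6.92 and 7.37 CPM in DMSO and 4.09, 4.06 and 3.98 CPM in encorafenib in NaJa-G, against 2.35, 3.07 and 2.3 CPM in DMSO and 5.58, 4.69 and 3.74 CPM in encorafenib in NaJa-D. The log2 fold changes were -0.69 in NaJa-G and 0.87 in NaJa-D, with a difference of -1.56 (SE 0.23, adjusted p = 2.36e-06). Rffl (ENSMUSG00000020696, chromosome 11, 82802449 to 82871210, GRCm38) encodes a ubiquitin ligase of endosomes. NaJa-G had 5.26, 6.66 and 5.84 CPM in DMSO and 3.62, 4.06 and 3.16 CPM in encorafenib, and NaJa-D had 6.3, 6.73 and 5.46 CPM in DMSO and 10.4, 9.49 and 8.14 CPM in encorafenib. Its difference was -1.30 (SE 0.16, adjusted p = 1.39e-07), and 30.8% of its exonic bases overlap Lig3 on the other strand. Rap1gap (ENSMUSG00000041351, chromosome 4, 137664726 to 137729861, GRCm38) encodes the protein that switches off the small GTPase RAP1. The libraries held 42.1, 39.5 and 41.1 CPM in DMSO and 20.1, 20.5 and 19.9 CPM in encorafenib in NaJa-G, against 4.15, 3.1 and 3.2 CPM in DMSO and 5.89, 5.1 and 4.55 CPM in encorafenib in NaJa-D. The difference of -1.59 (SE 0.16, adjusted p = 6.04e-09) rested on log2 fold changes of -1.02 in NaJa-G and 0.58 in NaJa-D. Without NaJa-D DMSO replicate 3 the log2 fold change in NaJa-D was 0.49 and was no longer called, and the gene counted as a response in NaJa-G alone, and it also lost the class without NaJa-D DMSO replicate 2 or NaJa-D encorafenib replicate 1, which left 20 of 23 fits. List members in this class were keratin 20 (Krt20), a marker of mature gut epithelium (-2.61 and 0.36), the anchoring collagen Col7a1 (-0.64 and 0.87) and the TGF-beta binding protein Ltbp3 (-0.37 and 0.51). For Krt20 the libraries had 7.3, 6.59 and 6.14 CPM in DMSO and 0.962, 1.15 and 1.17 CPM in encorafenib in NaJa-G, against 16.7, 17.5 and 15 CPM in DMSO and 21.2, 20.5 and 21.7 CPM in encorafenib in NaJa-D. With both doubted libraries left out the rise of Krt20 in NaJa-D was not called, and Col7a1 kept the class in 13 of 23 fits.

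**Figure D2:**
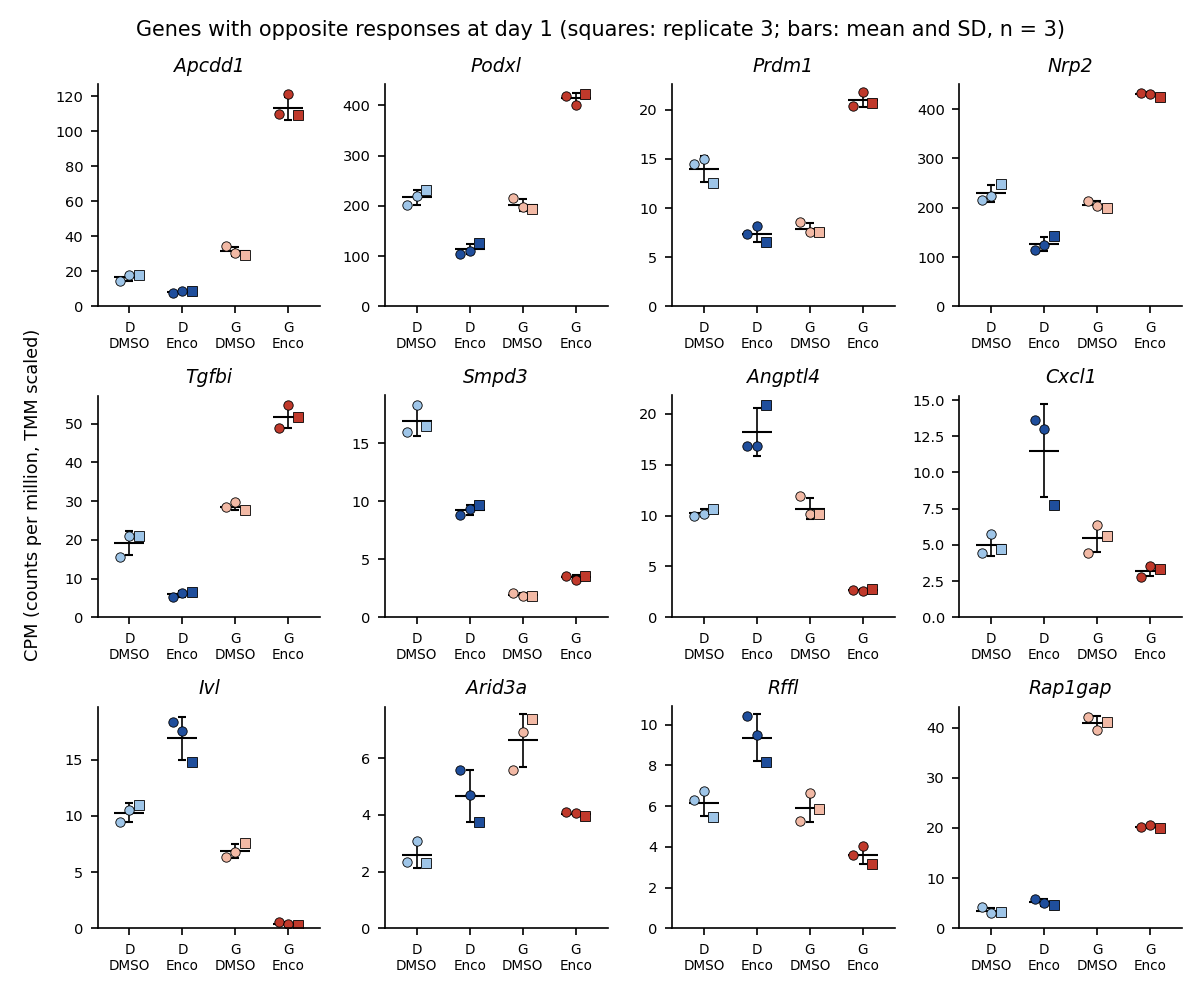
CPM (y axis) of the 12 named opposite genes in each library, by line and treatment, with circles for replicates 1 and 2, squares for replicate 3 and bars for the mean and SD (n = 3). In the first 6 panels, from Apcdd1 to Smpd3, encorafenib libraries lie above DMSO in NaJa-G and below it in NaJa-D, and in the last 6, from Angptl4 to Rap1gap, the order is turned around.

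The promoters of 4 of these genes and of Vim, described below among the responses of NaJa-D alone, are printed for genes whose response differed. The 250 bases before the RefSeq start of each gene are printed 5′ to 3′ on the gene's strand, from GRCm38.p6. For Prdm1 and Vim this start lies inside the gene positions given in this report, so their windows are within the gene. Capitals mark a match to 1 of 5 short motifs on either strand. The motifs were AP-1 (TGANTCA), ETS (CCGGAA), E-box (CAGGTG), CRE (TGACGTCA) and TCF (CTTTGAT), and no matches overlapped in these promoters. Prdm1 (chr10:44458749-44458998, minus strand) held an AP-1 and an E-box match, Nrp2 (chr1:62703067-62703316, plus strand) a TCF match, Cxcl1 (chr5:90890995-90891244, plus strand) an ETS match, Ivl (chr3:92573736-92573985, minus strand) an AP-1 match and Vim (chr2:13574061-13574310, plus strand) an ETS match.
Prdm1: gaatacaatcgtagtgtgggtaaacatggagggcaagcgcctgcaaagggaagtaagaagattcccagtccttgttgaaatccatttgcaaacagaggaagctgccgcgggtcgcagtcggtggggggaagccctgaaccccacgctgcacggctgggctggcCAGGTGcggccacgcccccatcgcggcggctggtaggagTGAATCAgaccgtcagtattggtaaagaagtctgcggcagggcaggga
Nrp2: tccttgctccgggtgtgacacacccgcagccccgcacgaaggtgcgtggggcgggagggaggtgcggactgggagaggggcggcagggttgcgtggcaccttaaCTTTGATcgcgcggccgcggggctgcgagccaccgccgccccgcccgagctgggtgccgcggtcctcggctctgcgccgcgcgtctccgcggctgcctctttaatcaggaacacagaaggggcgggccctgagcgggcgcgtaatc
Cxcl1: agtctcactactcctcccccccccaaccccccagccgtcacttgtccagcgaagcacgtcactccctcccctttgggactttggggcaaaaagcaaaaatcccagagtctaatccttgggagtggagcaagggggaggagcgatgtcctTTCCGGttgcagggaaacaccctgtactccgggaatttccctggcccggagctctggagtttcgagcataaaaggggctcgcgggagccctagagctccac
Ivl: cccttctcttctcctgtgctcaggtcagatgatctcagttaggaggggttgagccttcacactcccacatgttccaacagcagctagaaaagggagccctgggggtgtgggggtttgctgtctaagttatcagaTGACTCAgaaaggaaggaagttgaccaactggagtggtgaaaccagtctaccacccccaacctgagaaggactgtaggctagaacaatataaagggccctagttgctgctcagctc
Vim: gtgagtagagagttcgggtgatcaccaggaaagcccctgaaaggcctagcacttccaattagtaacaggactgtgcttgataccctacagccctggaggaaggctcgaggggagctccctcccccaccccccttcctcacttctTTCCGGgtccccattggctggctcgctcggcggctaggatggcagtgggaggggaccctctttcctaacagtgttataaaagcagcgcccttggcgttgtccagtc

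Promoters were found for 10225 of the tested genes. Over these, the ETS motif was present in 22.5%, the E-box motif in 15.3%, the AP-1 motif in 4.56%, the CRE motif in 2.74% and the TCF motif in 2.33%, and over all 27025 promoters of the table in 12.3%, 17.1%, 6.85%, 1.6% and 3.26%. Among 92 promoters of genes that rose in NaJa-G and fell in NaJa-D, 12 (13%) held the ETS motif, 16 (17.4%) the E-box motif and 3 (3.26%) the AP-1 motif. Among 46 promoters of genes that rose in NaJa-D and fell in NaJa-G, 5 (10.9%) held the ETS motif, 3 (6.52%) the E-box motif and 6 (13%) the AP-1 motif. The ETS motif was present in 27% of 758 promoters of genes that fell in NaJa-G alone, 27.9% of 692 of genes that fell in both lines and further in NaJa-G and 24.3% of 169 of genes that rose in NaJa-D alone. These are descriptions of the letters in the window and were not tested.

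Genes with a called response in 1 line alone made up the largest group. Since a missed threshold does not show that a gene was unchanged, a narrower set was taken in which the 95% interval of the log2 fold change in the other line lay within -0.5 to 0.5. This left 1756 of 2316 genes for NaJa-G and 322 of 426 for NaJa-D. Of the 2316 genes of NaJa-G, 1285 rose and 1031 fell, and in the narrow set 1015 rose and 741 fell. Of the 426 genes of NaJa-D, 202 rose and 224 fell, and in the narrow set 130 rose and 192 fell. The mean level in the line without a call was below 1 CPM for 193 of the 2316 NaJa-G genes and for 26 of the 426 NaJa-D genes. In each narrow set this held for 1 gene. The genes described next came from the narrow sets and did not overlap between treatments in the responding line.

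Genes that rose in NaJa-G alone included Tent5c, Col12a1, Csrp2 and Gnai1. Tent5c (ENSMUSG00000044468, chromosome 3, 100451628 to 100489324, GRCm38), a poly(A) polymerase that stabilises mRNA, had 3.23, 2.52 and 2.28 CPM in DMSO and 27.5, 28 and 28.1 CPM in encorafenib in NaJa-G, against 1.82, 1.69 and 2.04 CPM in DMSO and 1.63, 1.93 and 2.52 CPM in encorafenib in NaJa-D. The treatments were apart in NaJa-G, with a log2 fold change of 3.38 against 0.09 in NaJa-D (95% interval -0.26 to 0.44) and a difference of 3.29 (SE 0.20, adjusted p = 2.48e-13). Col12a1 (ENSMUSG00000032332, chromosome 9, 79598991 to 79718831, GRCm38), a collagen that sits on the surface of other collagen fibrils, had 17.3, 19.1 and 17.6 CPM in DMSO and 110, 109 and 98.4 CPM in encorafenib in NaJa-G, against 63.1, 74.2 and 62.8 CPM in DMSO and 59.9, 61.9 and 66.6 CPM in encorafenib in NaJa-D. The rise in NaJa-G was 2.55 on the log2 scale and the interval in NaJa-D was -0.29 to 0.12, with a difference of 2.64 (SE 0.15, adjusted p = 3.75e-14). Csrp2 (ENSMUSG00000020186, chromosome 10, 110919789 to 110939622, GRCm38), a LIM protein of the actin cytoskeleton, had 12.6, 11.2 and 12.1 CPM in DMSO and 68, 67.6 and 74.7 CPM in encorafenib in NaJa-G, against 4.77, 5.02 and 4.58 CPM in DMSO and 5.13, 4.81 and 5.39 CPM in encorafenib in NaJa-D. Its difference was 2.46 (SE 0.14, adjusted p = 7.96e-14). Gnai1 (ENSMUSG00000057614, chromosome 5, 18265135 to 18360355, GRCm38), an inhibitory G protein subunit, had 14.8, 11.9 and 11.8 CPM in DMSO and 61.8, 60.7 and 59.5 CPM in encorafenib in NaJa-G, against 12.3, 9.1 and 10.5 CPM in DMSO and 10.7, 11.7 and 13.1 CPM in encorafenib in NaJa-D. The log2 fold change was 2.24 in NaJa-G and 0.15 in NaJa-D, a difference of 2.10 (SE 0.14, adjusted p = 1.08e-12).

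Genes that fell in NaJa-G alone included 2010300C02Rik, Aqp3, Trim15 and Pidd1. The uncharacterised 2010300C02Rik (ENSMUSG00000026090, chromosome 1, 37611677 to 37720085, GRCm38) had 21, 18.3 and 18.5 CPM in DMSO and 3.24, 3.99 and 3.78 CPM in encorafenib in NaJa-G, against 6.28, 7.77 and 5.68 CPM in DMSO and 7.59, 6.51 and 6.73 CPM in encorafenib in NaJa-D, with a difference of -2.48 (SE 0.14, adjusted p = 6.23e-14). Aqp3 (ENSMUSG00000028435, chromosome 4, 41092722 to 41098183, GRCm38), a water and glycerol channel of epithelia, had 38.3, 37.3 and 37.9 CPM in DMSO and 8.54, 8.5 and 8.74 CPM in encorafenib in NaJa-G, against 8.84, 10.8 and 8.68 CPM in DMSO and 9.51, 8.46 and 7.69 CPM in encorafenib in NaJa-D. It fell in NaJa-G by 2.14 on the log2 scale, and the NaJa-D interval was -0.32 to 0.06. Trim15 (ENSMUSG00000050747, chromosome 17, 36860691 to 36867210, GRCm38), a TRIM family ubiquitin ligase, had 7.24, 8.76 and 9.1 CPM in DMSO and 2.21, 2.49 and 2.31 CPM in encorafenib in NaJa-G, against 7.56, 7.2 and 7.23 CPM in DMSO and 8.75, 7.82 and 6.28 CPM in encorafenib in NaJa-D, and a difference of -1.87 (SE 0.20, adjusted p = 1.89e-08). Pidd1 (ENSMUSG00000025507, chromosome 7, 141438113 to 141444025, GRCm38), the scaffold of the caspase 2 complex and a p53 target, had 10.2, 15.9 and 16.7 CPM in DMSO and 3.67, 4.82 and 3.7 CPM in encorafenib in NaJa-G, against 12, 15.2 and 14.4 CPM in DMSO and 17.4, 17.4 and 9.23 CPM in encorafenib in NaJa-D. The log2 fold change was -1.76 in NaJa-G and 0.06 in NaJa-D, and without NaJa-D encorafenib replicate 3 it was 0.31 in NaJa-D, with no change of class.

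Genes that rose in NaJa-D alone included Cx3cl1, Camk2n1, Adgrg1 and Plxna3, named among genes of at least 2 log2 CPM. Cx3cl1 (ENSMUSG00000031778, chromosome 8, 94772009 to 94782427, GRCm38), the membrane-bound chemokine fractalkine, had 13, 18.1 and 11.7 CPM in DMSO and 35, 35.8 and 32.6 CPM in encorafenib in NaJa-D, against 9.94, 10.5 and 9.1 CPM in DMSO and 10.4, 11.9 and 11.3 CPM in encorafenib in NaJa-G. Its log2 fold change was 1.30 in NaJa-D, with an interval of -0.06 to 0.42 in NaJa-G and a difference of -1.12 (SE 0.16, adjusted p = 1.99e-06). Camk2n1 (ENSMUSG00000046447, chromosome 4, 138454314 to 138460123, GRCm38), an inhibitor of the kinase CaMKII, had 5.76, 6.24 and 4.8 CPM in DMSO and 12.5, 13.1 and 12.9 CPM in encorafenib in NaJa-D, against 17, 16.4 and 16.6 CPM in DMSO and 19.1, 18.4 and 19.8 CPM in encorafenib in NaJa-G. Adgrg1 (ENSMUSG00000031785, chromosome 8, 94974751 to 95014217, GRCm38), an adhesion receptor that binds collagen III, had 79.5, 95.5 and 87.3 CPM in DMSO and 183, 190 and 220 CPM in encorafenib in NaJa-D, against 49.3, 44.8 and 43.1 CPM in DMSO and 50.9, 50 and 51.4 CPM in encorafenib in NaJa-G. The differences were -1.01 (SE 0.14, adjusted p = 1.08e-06) for Camk2n1 and -1.03 (SE 0.10, adjusted p = 1.65e-09) for Adgrg1. Plxna3 (ENSMUSG00000031398, chromosome X, 74329066 to 74344689, GRCm38), a semaphorin receptor, had 8.54, 10.7 and 9.7 CPM in DMSO and 23.2, 23.1 and 18.3 CPM in encorafenib in NaJa-D, against 22.1, 31.4 and 31.7 CPM in DMSO and 23.1, 25.9 and 22.7 CPM in encorafenib in NaJa-G, and a difference of -1.38 (SE 0.19, adjusted p = 7.48e-07). In NaJa-D the encorafenib libraries of all 4 genes were the high ones, and without the doubted pair their log2 fold changes in NaJa-D were 1.17, 1.06, 1.06 and 1.24.

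By the same rule, Cemip, Vim, Cyp3a13 and Tnfrsf11b were named among the genes that fell in NaJa-D alone. Cemip (ENSMUSG00000052353, chromosome 7, 83932857 to 84086502, GRCm38), a hyaluronan-degrading protein, had 10.6, 10.1 and 11.2 CPM in DMSO and 3.69, 3.7 and 3.29 CPM in encorafenib in NaJa-D, against 6.88, 7.58 and 7.49 CPM in DMSO and 6.79, 6.56 and 6.11 CPM in encorafenib in NaJa-G. Vim (ENSMUSG00000026728, chromosome 2, 13573927 to 13582826, GRCm38), the intermediate filament vimentin of mesenchymal cells, had 127, 118 and 125 CPM in DMSO and 39.5, 39 and 54.8 CPM in encorafenib in NaJa-D, against 2930, 2323 and 2255 CPM in DMSO and 2360, 2305 and 2462 CPM in encorafenib in NaJa-G. Vimentin was the lower in NaJa-D already in DMSO, and it fell there, with an interval of -0.29 to 0.17 in NaJa-G and a difference of 1.44 (SE 0.15, adjusted p = 6.73e-09). Cyp3a13 (ENSMUSG00000029727, chromosome 5, 137892932 to 137921619, GRCm38), a cytochrome P450 that metabolises drugs and steroids, had 29.1, 31 and 33.7 CPM in DMSO and 11.1, 11.6 and 11 CPM in encorafenib in NaJa-D, against 5.56, 6.75 and 7.1 CPM in DMSO and 5.02, 6.17 and 5.68 CPM in encorafenib in NaJa-G. Tnfrsf11b (ENSMUSG00000063727, chromosome 15, 54250619 to 54278484, GRCm38), the secreted decoy receptor osteoprotegerin, had 66.3, 83.1 and 49.7 CPM in DMSO and 23.7, 29.6 and 22 CPM in encorafenib in NaJa-D, against 59.2, 57.3 and 53.3 CPM in DMSO and 48.6, 52.2 and 50.4 CPM in encorafenib in NaJa-G. The differences were 1.41 (SE 0.16, adjusted p = 2.95e-08) for Cemip, 1.29 (SE 0.14, adjusted p = 1.07e-08) for Cyp3a13 and 1.22 (SE 0.16, adjusted p = 7.45e-07) for Tnfrsf11b. Of the 8 genes of NaJa-D alone, Camk2n1, Adgrg1, Cemip and Tnfrsf11b also had treatments apart in NaJa-G, by 0.19, 0.15, -0.17 and -0.17 on the log2 scale without passing the test.

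**Figure D3:**
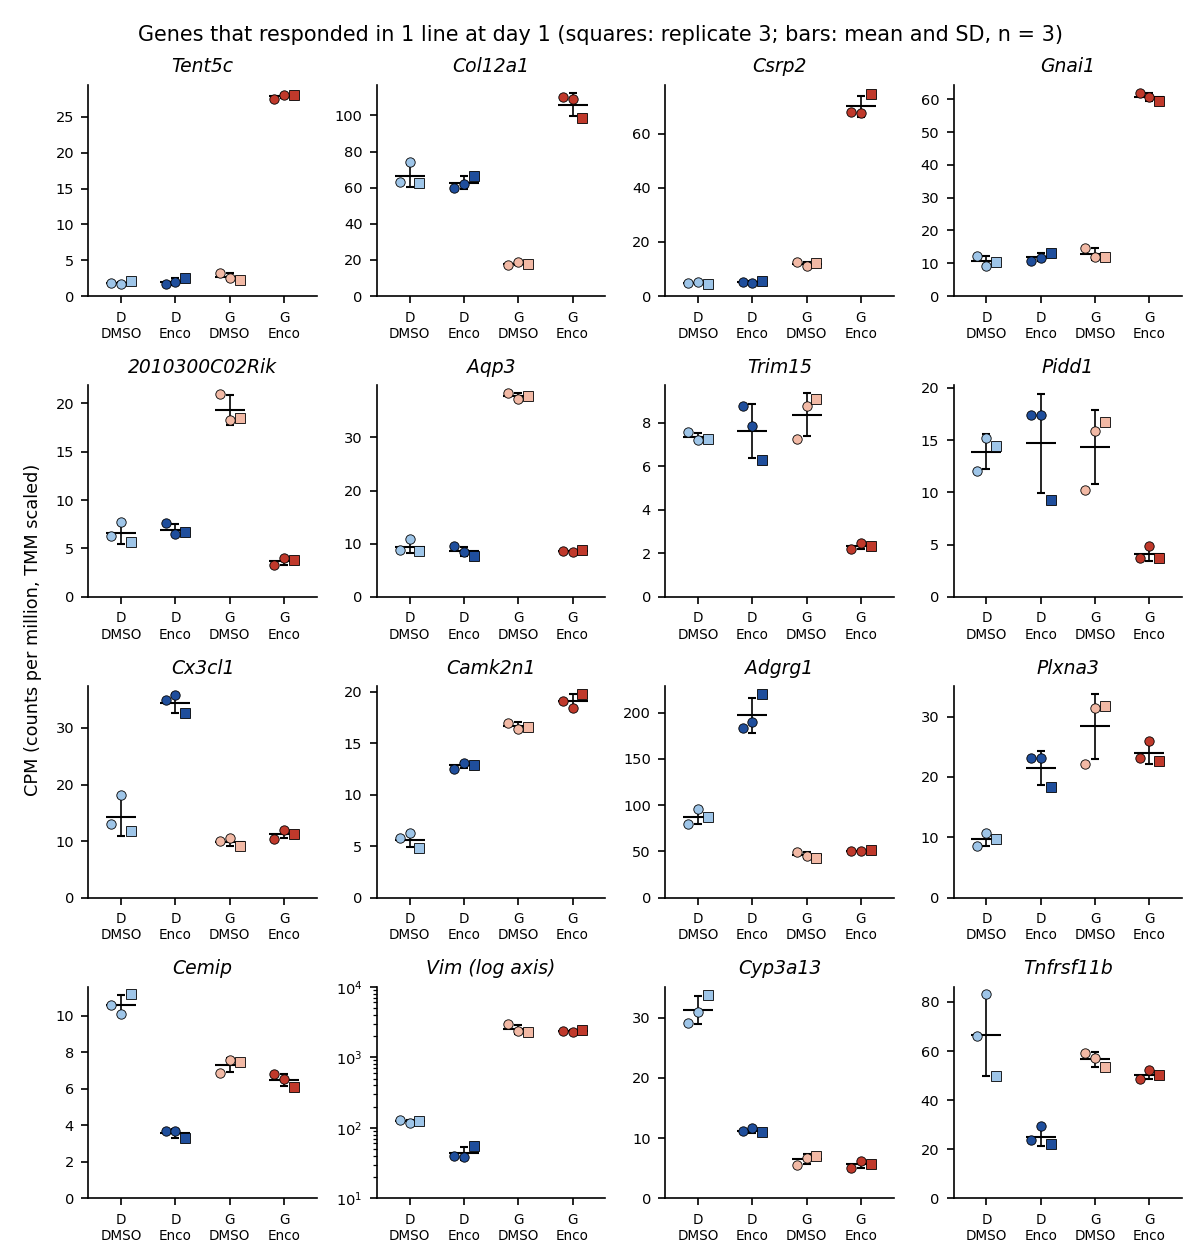
CPM (y axis, logarithmic for Vim) in each library of genes called in NaJa-G alone and in NaJa-D alone, by line and treatment, with circles for replicates 1 and 2, squares for replicate 3 and bars for the mean and SD (n = 3). The treatments do not overlap in the responding line, which is how these genes were chosen.

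Where both lines moved the same way, the change was larger in NaJa-G for 1970 genes, of which 1110 rose and 860 fell. Among those that rose further in NaJa-G, Serpinb1a, an inhibitor of neutrophil proteases with close paralogs whose reads may not be told apart, had 0.929, 1.21 and 1.33 CPM in DMSO and 79, 78.9 and 83.2 CPM in encorafenib in NaJa-G, against 4.84, 4.69 and 4.46 CPM in DMSO and 10.4, 10.2 and 11.4 CPM in encorafenib in NaJa-D. The log2 fold change was 6.14 in NaJa-G and 1.19 in NaJa-D. Tgfb2, the TGF-beta 2 ligand, went from 7.1 ± 0.83 to 115 ± 5.62 CPM in NaJa-G and from 4.19 ± 0.803 to 10.4 ± 1.17 CPM in NaJa-D (SD, n = 3), a difference of 2.69 (SE 0.17, adjusted p = 4.26e-13). The annotated transcript 4930438A08Rik had log2 fold changes of 4.15 in NaJa-G and 1.37 in NaJa-D. Areg, the EGFR ligand amphiregulin, fell from 50.3 ± 1.88 to 3.63 ± 0.491 CPM in NaJa-G and from 34.9 ± 3.84 to 24.2 ± 1.52 CPM in NaJa-D, a difference of -3.30 (SE 0.17, adjusted p = 1.78e-14). The organic anion transporter Slco4a1 had log2 fold changes of -3.30 in NaJa-G and -0.48 in NaJa-D, and the ETS factor Etv4 of -3.64 in NaJa-G and -1.20 in NaJa-D.

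The change was larger in NaJa-D for 74 genes, of which 33 rose and 41 fell. The cell adhesion molecule Nrcam fell from 233 ± 21.3 to 32 ± 4.62 CPM in NaJa-D and from 171 ± 5.12 to 79.2 ± 1.25 CPM in NaJa-G (SD, n = 3), a difference of 1.77 (SE 0.12, adjusted p = 1.85e-12). The anion channel Slc26a9 and the neuronal pentraxin Nptx1 also fell further in NaJa-D, with log2 fold changes of -2.49 and -3.15 in NaJa-D against -0.85 and -1.74 in NaJa-G. Krt13, a keratin of stratified epithelia, Cdk18, a cyclin-dependent kinase, and Tcirg1, a subunit of the vacuolar proton pump, rose further in NaJa-D, by 2.44, 1.10 and 1.27 against 1.54, 0.36 and 0.54.

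The genes of 35 lists were read next, with counts set against the 20.2% of all genes above 0 and the 16.2% below 0, and with a median difference of 0.03 over all genes. Of the ERK pathway output, feedback genes and direct targets, 5 of 33 tested members were called above 0 and 16 below 0, with a median difference of -0.53. In NaJa-G 22 members fell and in NaJa-D 19 did, where 28.7% and 21.2% of all genes fell, and 15 changed the same way in both lines with the larger change in NaJa-G. Among these were the ERK phosphatase Dusp6 (-1.90 and -0.55), the feedback inhibitor Spry4 (-3.64 and -1.68), the ETS factor Etv5 (-2.75 and -1.93) and the AP-1 subunit Fosl1 (-3.15 and -0.87), with 57.2% of the exonic bases of Fosl1 overlapping Ccdc85b on the other strand. For Dusp6 the libraries had 193, 174 and 173 CPM in DMSO and 49.8, 45.9 and 48.6 CPM in encorafenib in NaJa-G, against 138, 134 and 139 CPM in DMSO and 88.2, 91.1 and 102 CPM in encorafenib in NaJa-D. A response in NaJa-G alone was called for the RAS inhibitor Spred3 (-2.12 and -0.04) and for the immediate early factor Egr1 (-1.63 and 0.16). Egr1 had 38, 32.7 and 34.4 CPM in DMSO and 11.7, 11.8 and 10.4 CPM in encorafenib in NaJa-G, against 15.1, 12.7 and 12.6 CPM in DMSO and 14.9, 14.6 and 15.7 CPM in encorafenib in NaJa-D, so the treatments were apart in NaJa-G and overlapped in NaJa-D. Ier3, an immediate early survival gene, rose in NaJa-D alone (0.17 and 0.70). Ccnd1, described above, was the 1 member with opposite responses, and it rose in NaJa-G and fell in NaJa-D.

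In the EGFR family and its ligands, 2 of 12 tested members were called above 0 and 6 below 0, and with both doubted libraries left out the counts were 5 and 5. The ligands amphiregulin (above), epiregulin (Ereg (-1.58 and -0.04)), Hbegf (-0.83 and -0.02) and betacellulin (Btc (-2.61 and -0.80)) had differences below 0, and the receptor Egfr rose in NaJa-G alone (0.59 and 0.11). Egfr had 38.6, 37.9 and 36.8 CPM in DMSO and 58.5, 56.1 and 55.9 CPM in encorafenib in NaJa-G, against 130, 133 and 145 CPM in DMSO and 139, 141 and 160 CPM in encorafenib in NaJa-D. Errfi1, which blocks the EGFR kinase, fell further in NaJa-G (-1.44 and -0.72). Of the other receptor kinases and their ligands, 12 of 22 tested members were called above 0 and 0 below 0, with a median difference of 0.70. This list held Axl, Ror1 and Fgfr1, described above. Of the PI3K and FOXO genes, 16 of 29 tested members were called above 0 and 0 below 0, among them the insulin receptor substrate Irs2 (0.85 and -0.14), which rose in NaJa-G alone.

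Next were the genes of growth and division. In DNA replication, 1 of 26 tested members were called above 0 and 21 below 0, with a median log2 fold change of -0.96 in NaJa-G and -0.38 in NaJa-D. Examples were the helicase subunit Mcm5 (-1.07 and -0.55), the loading factor Cdc6 (-1.36 and -0.43) and the primase Prim1 (-1.25 and -0.14). In mitosis, 0 of 24 tested members were called above 0 and 12 below 0, with medians of -1.03 and -0.62. The survivin gene Birc5 (-1.26 and -0.39) and the spindle motor Kif11 (-1.07 and -0.23) were among them, and the proliferation marker Mki67 was not called, with a difference of -0.37 (adjusted p = 0.0347). Of the MYC and ribosome biogenesis genes, 3 of 24 tested members were called above 0 and 19 below 0. Myc itself fell further in NaJa-G (-1.23 and -0.49), as did the nucleolar Npm1 (-1.53 and -0.61), and Gnl3 fell in NaJa-G alone (-1.44 and -0.04). Myc had 192, 178 and 176 CPM in DMSO and 79, 76 and 78 CPM in encorafenib in NaJa-G, against 243, 256 and 253 CPM in DMSO and 172, 174 and 192 CPM in encorafenib in NaJa-D. Among the G1 regulators, 5 of 20 tested members were called above 0 and 7 below 0, or 5 and 5 without the doubted libraries, with cyclin D2 (Ccnd2) rising (1.61 and -0.02) and the kinase Cdk2 falling (-0.94 and 0.06) in NaJa-G alone.

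Epithelial and mesenchymal lists both had more members called above 0 than below 0. Of the junction and keratin genes, 16 of 35 tested members were called above 0 and 2 below 0, with a median difference of 0.49. E-cadherin (Cdh1) rose in NaJa-G alone (0.68 and -0.00), from 557, 502 and 494 CPM in DMSO to 841, 787 and 848 CPM in encorafenib, and had 1487, 1637 and 1696 CPM in DMSO and 1428, 1553 and 1847 CPM in encorafenib in NaJa-D. The tight junction gene Ocln (0.85 and -0.00), the desmosomal Dsp (1.33 and 0.12) and the epithelial ETS factor Ehf (2.14 and 0.07) also rose in NaJa-G alone. Other epithelial markers did not follow. The differences of Krt8, Krt19 and Vil1 were not called, with -0.34 to 0.03, 0.29 to 0.64 and 0.02 to 0.30 over the 23 alternative fits. Krt19 was called without both doubted libraries (0.64, adjusted p = 0.000822). Krt18 had a called difference below 0 (-0.57 to -0.25 over the fits) without a called response in either line. The call was kept in 14 of 23 fits and was lost without both doubted libraries (-0.25, adjusted p = 0.0962). Epcam, an epithelial adhesion molecule, fell in NaJa-D alone (-0.15 and -0.47), a class kept in 14 of 23 fits. Of the mesenchymal genes, 12 of 21 tested members were called above 0 and 2 below 0, with a median difference of 0.70. The EMT factors Zeb1 (0.93 and -0.11) and Snai2 (1.24 and 0.12) and N-cadherin Cdh2 (0.56 and -0.13) rose in NaJa-G alone. Zeb1 had 32, 30.2 and 30.8 CPM in DMSO and 59.5, 59.1 and 58.8 CPM in encorafenib in NaJa-G, against 1.65, 1.27 and 1.46 CPM in DMSO and 1.26, 1.35 and 1.45 CPM in encorafenib in NaJa-D. Zeb2 (0.08 and -0.44) and the galectin Lgals1 (0.00 and -1.04) fell in NaJa-D alone. The summed fibroblast markers given above rose with encorafenib in NaJa-G as well, and their part in these results was not tested. Of the intestinal differentiation genes, 7 of 22 tested members were called above 0 and 3 below 0, and 5 and 5 with scaling by library size only.

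Cytoskeleton, matrix and developmental signalling lists also had more members above 0 than below 0. Of the smooth muscle type cytoskeleton genes, 14 of 21 tested members were called above 0 and 1 below 0, with the actin regulators Cald1 (2.55 and 1.31) and Myh10 (0.96 and 0.05) as examples. Of the YAP targets, 17 of 22 tested members were called above 0 and 0 below 0, with Crim1 (1.63 and 0.10) rising in NaJa-G alone. Of the collagens, laminins and matrix genes, 13 of 26 tested members were called above 0 and 2 below 0. Of the WNT feedback and stem cell genes, 13 of 24 tested members were called above 0 and 1 below 0, with a median log2 fold change of 0.41 in NaJa-G and -0.28 in NaJa-D. Both lines carry an inactivated Apc gene, whose own transcript did not pass the test (difference 0.28, adjusted p = 0.0533). The stem cell receptor Lgr5 rose in NaJa-G alone (1.10 and 0.27), and the feedback gene Axin2 moved further in NaJa-G (0.96 and 0.28). Of the TGF-beta and BMP genes, 16 of 29 tested members were called above 0 and 3 below 0, with the receptor Tgfbr2 rising (1.75 and 0.21) and the repressor Tgif1 falling (-1.05 and 0.14) in NaJa-G alone, and the ligand Bmp2 falling in NaJa-D alone (0.21 and -1.06).

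The remaining lists covered metabolism, immunity and stress. Of the lysosome and autophagy genes, 18 of 30 tested members were called above 0 and 0 below 0, and with scaling by library size only the counts were 12 and 2. Of the cholesterol and fatty acid genes, 14 of 31 tested members were called above 0 and 1 below 0, and the counts were 10 and 5 with that scaling. Of the MHC class I genes, 7 of 17 tested members were called above 0 and 0 below 0, and of the interferon genes 8 of 27 tested members were called above 0 and 3 below 0, with Oasl2 moving further in NaJa-D (1.06 and 3.19). The immune checkpoint ligand Cd274, or PD-L1, fell in NaJa-G alone (-1.03 and -0.16), with 6.06, 6.09 and 7.45 CPM in DMSO and 2.8, 3.19 and 3.56 CPM in encorafenib in NaJa-G, against 3.85, 3.52 and 4.05 CPM in DMSO and 3.45, 3.9 and 2.88 CPM in encorafenib in NaJa-D. Of the chemokines and cytokines, 2 of 20 tested members were called above 0 and 5 below 0, among them Cxcl1. Il18, a cytokine of epithelia, was close to 0 in DMSO, with 0.0131, 0.067 and 0.0665 CPM in DMSO and 8.83, 9.6 and 9.73 CPM in encorafenib in NaJa-G, against 0.0209, 0.141 and 0.0485 CPM in DMSO and 1.61, 1.7 and 1.39 CPM in encorafenib in NaJa-D, so its fold changes are not given. Among death genes, 5 of 22 tested members were called above 0 and 1 below 0, with counts of 3 and 3 with library size only. The pro-apoptotic Bcl2l11, or BIM, rose in NaJa-G alone (1.51 and 0.06). Of the p53 targets 9 of 23 tested members were called above 0 and 5 below 0, and 4 and 5 with library size only, and Trp53 fell further in NaJa-G (-0.68 and -0.17). Braf did not pass the test (difference -0.08, adjusted p = 0.649). For the ATF4 and NRF2 lists the counts were 7 above and 6 below 0 of 28, and 7 and 5 of 25, and with library size only they turned to 4 and 7 and to 4 and 7. Glycolysis and hypoxia genes were split, with 7 above and 5 below 0 of 32, and 5 and 5 with library size only. The integrin, Notch, protease, checkpoint and inflammatory caspase lists had 6 above and 2 below 0 of 14, 6 and 2 of 16, 10 and 4 of 26, 6 and 3 of 15, and 3 and 3 of 8. Of the 190 opposite genes, 27 were on a list.

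**Figure D4:**
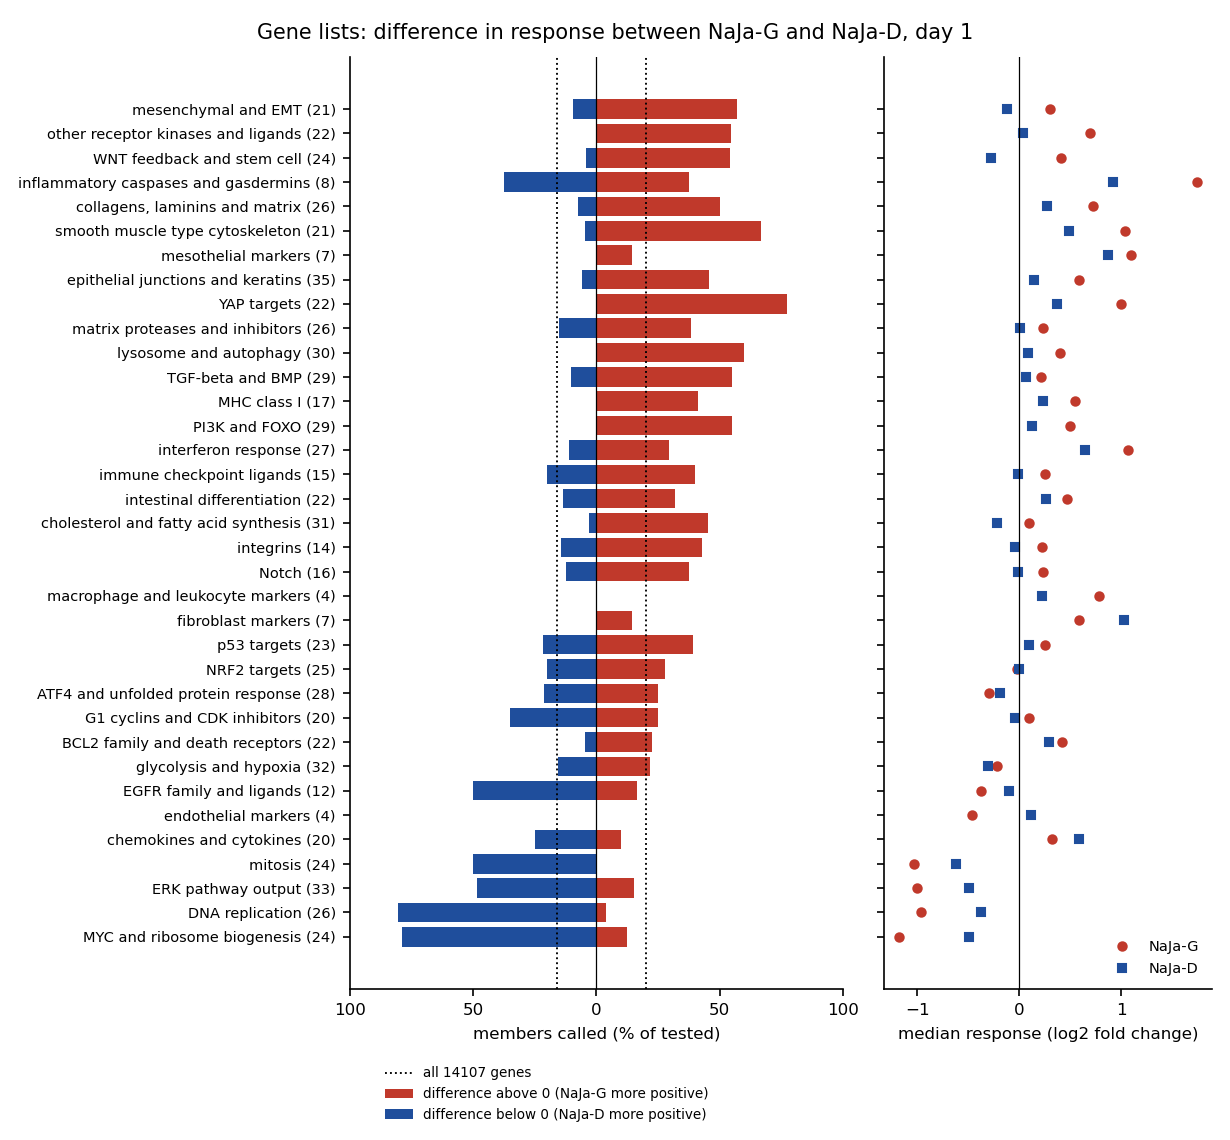
Left, the share of each list's tested members (number in brackets) whose response difference was called above 0 (red, to the right) or below 0 (blue, to the left), in percent, with dotted lines at the 20.2% and 16.2% of all genes. Right, the median log2 fold change of the list in NaJa-G (circles) and NaJa-D (squares), where ERK output, replication, mitosis and MYC genes lie below 0 in both lines and further below in NaJa-G.

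The same difference at day 5 was measured in 11 libraries that day 1 did not use, and was called for 3089 genes (21.9%), 1986 above 0 (14.1%) and 1103 below 0 (7.82%). The response at day 5 was called for 53.2% of genes in NaJa-G and 33.0% in NaJa-D. Of the 5134 genes of day 1, 1569 (30.6%) were called with the same sign at day 5 and 152 with the opposite sign, and 3834 (74.7%) had the same sign whether called or not. Of the 127 genes that rose in NaJa-G and fell in NaJa-D, 95 (74.8%) had a difference of the same sign at day 5, called for 60 (47.2%), and 10 were called with the opposite sign. Of the 63 of the other direction, 48 (76.2%) had the same sign, called for 25 (39.7%), and 0 were called with the opposite sign, so the share that kept its sign was near that of all called genes in both directions. Smpd3 had a larger difference at day 5 (3.53), and Podxl (1.28) and Nrp2 (0.72) kept one above 0. Prdm1 turned, with a difference of -0.55 (adjusted p = 0.0017) and falls in both lines, by 2.06 in NaJa-G and by 1.51 in NaJa-D. Apcdd1 had a difference of -0.18 (adjusted p = 0.359) at day 5 and Tgfbi one of 0.32 (adjusted p = 0.114). Angptl4 (-2.53), Ivl (-1.94) and Rap1gap (-0.62) stayed below 0, while Cxcl1 (-0.58, adjusted p = 0.0934), Arid3a (-0.51, adjusted p = 0.11) and Rffl (-0.22, adjusted p = 0.247) did not pass the test. Tnfrsf11b went from 1.22 at day 1 to -1.46 at day 5, and Aqp3 from -2.01 to -4.34. Col12a1 (3.35) and Cemip (1.49) had differences above 0 on both days. The cholesterol and fatty acid list had 14 members above 0 and 1 below at day 1, and 1 above and 12 below at day 5.

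**Figure D5:**
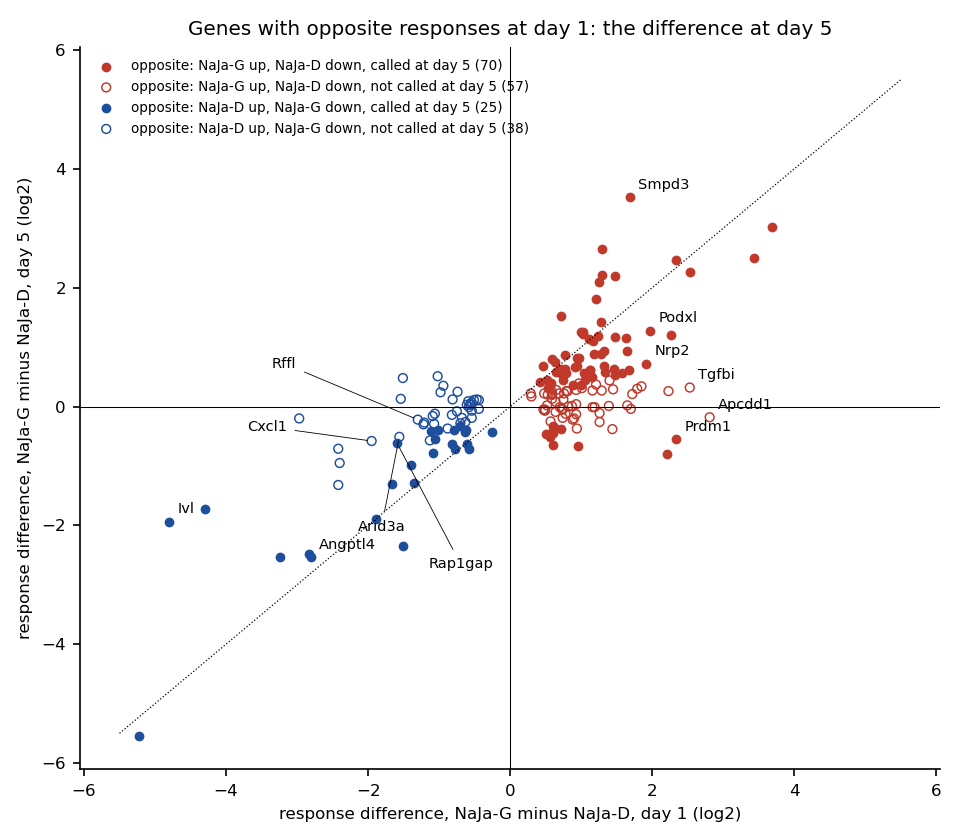
The difference of the response (NaJa-G minus NaJa-D, log2) of the 190 opposite genes, with day 1 on the x axis and day 5 on the y axis, filled where the difference was called at day 5. Of the 127 genes that rose in NaJa-G and fell in NaJa-D, 95 lie above 0 at day 5, and of the 63 others 48 lie below 0, where 74.7% of all called genes kept their sign.

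NaJa-F, the line that the study describes as intermediate, gave its own day 1 response in 6 further libraries, with 4161 genes called (29.5%). Of the 127 genes that rose in NaJa-G and fell in NaJa-D, 15 rose, 16 fell and 96 were not called in NaJa-F. Of the 63 genes that rose in NaJa-D and fell in NaJa-G, 4 rose, 11 fell and 48 were not called. Apcdd1 fell in NaJa-F (-0.43, adjusted p = 0.000233), as in NaJa-D, while Angptl4 fell (-0.65, adjusted p = 4.41e-07), as in NaJa-G. Over all 14107 genes, 2468 rose and 1693 fell in NaJa-F. Among the 1285 genes that rose in NaJa-G alone, 456 rose, 5 fell and 824 were not called in NaJa-F. For the 1031 that fell in NaJa-G alone the counts were 5, 314 and 712. They were 21, 2 and 179 for the 202 genes that rose in NaJa-D alone, and 0, 34 and 190 for the 224 that fell there. As over all genes, of which 29.5% were called in NaJa-F, most genes of these classes were not called there. Those called mostly moved as in the responding line. In the DMSO libraries of day 5, of which NaJa-D had 3 and NaJa-G 2, 7979 genes (56.6%) differed between the lines. Of the 127 genes, 62 were higher and 35 lower in NaJa-G there, and of the 63 genes 14 were higher and 29 lower. The response difference had the opposite sign to this line difference for 35 of 97 such genes (36.1%) and for 14 of 43 (32.6%), against 44.6% of all 3231 genes with both a called response difference and a called line difference. For Apcdd1 the DMSO difference at day 5 was 3.10, for Smpd3 -3.70 and for Rap1gap 2.60. Over the opposite genes the median transcript length was 4392 and 4072 bases, against 3213 over all genes, and the median GC content was 49.8% and 50.8% against 49.7%.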

How the data were processed

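RNA from mouse colorectal cancer cells was sequenced by the authors, who deposited raw counts of reads for each gene in 34 libraries. Reads were aligned to GRCm38 per the authors' methods, and the submitters' processing notes name Trimmomatic 0.39 and STAR 2.5.2b. Which tool counted reads, against which annotation and with or without strand is not given in the sources used here. Titles of the samples gave the groups. Counts of all 14107 genes were fitted in R 4.3.3 with limma 3.58.1 after voom weighting and TMM scaling (edgeR 4.0.16), with a mean for each of 12 groups, so that the 34 libraries shared 1 estimate of the spread per gene. The threshold was a Benjamini-Hochberg adjusted p of 0.01 over all genes, as in the authors' methods, and tests were two-sided. The use of voom was chosen here. Symbols and positions were found for 14064 genes. CPM were computed with TMM factors.

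The contrast, the gene lists and the tests were chosen with earlier results of these data known. Genes were named by a rule. It took genes of at least 2 log2 CPM on average over the 12 libraries, without overlap between DMSO and encorafenib in the responding line or lines. Of these it named the 6 opposite genes of each direction with the largest response in their weaker line, 4 genes of each direction per line that responded alone (95% interval of the other line within -0.5 to 0.5), and 3 of each direction with the largest difference where both lines moved the same way. It also named members of the lists and the genes of the engineered alleles. Lists are described by counts and medians, with no test. Promoters were RefSeq sequences on GRCm38.p6.

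The other settings tried were DESeq2 1.42.0, edgeR's quasi-likelihood test, limma-trend with a prior count of 3, RLE scaling, no scaling beyond library size, filterByExpr, a block for the replicate number, library quality weights, only the 12 compared libraries in the fit, leaving out each of these in turn, an adjusted p of 0.05 and an absolute log2 difference of 1. Leaving out both doubted libraries and removing a GC trend (lowess, span 0.3) were added after the data were seen. On simulated data of 14107 genes for this difference, limma-voom recovered 74% of 100 genes changed by 1 and 92% of 100 changed by 2 on the log2 scale, with 1 of 13907 unchanged genes called. In the simulation only the changed genes responded, only in NaJa-G with encorafenib, and no library was made to stand apart. It therefore checks the contrast and cannot give the rate of false calls in the real libraries.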

Additional observations from a re-analysis of the deposited data

Results flagged for a closer look

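The encorafenib response of each of 40 named genes differed between NaJa-G and NaJa-D in the test of the difference itself, which is the reason for listing it here. The naming rule used this difference, so the values describe the genes and are no further test of them. Groups held 3 libraries each, too few for a test of single outlying samples. Values are the log2 fold change in NaJa-G minus that in NaJa-D at day 1.

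Among genes that rose in NaJa-G and fell in NaJa-D the difference was 2.81 for Apcdd1, 1.97 for Podxl, 2.34 for Prdm1, 1.92 for Nrp2, 2.53 for Tgfbi and 1.69 for Smpd3. Among genes that rose in NaJa-D and fell in NaJa-G it was -2.81 for Angptl4, -1.95 for Cxcl1, -4.80 for Ivl, -1.56 for Arid3a, -1.30 for Rffl and -1.59 for Rap1gap. Where NaJa-G alone responded, it was 3.29 for Tent5c, 2.64 for Col12a1, 2.46 for Csrp2 and 2.10 for Gnai1 with rises in NaJa-G, and -2.48 for 2010300C02Rik, -2.01 for Aqp3, -1.87 for Trim15 and -1.81 for Pidd1 with falls.

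Where NaJa-D alone responded, the difference was -1.12 for Cx3cl1, -1.01 for Camk2n1, -1.03 for Adgrg1 and -1.38 for Plxna3 with rises in NaJa-D, and 1.41 for Cemip, 1.44 for Vim, 1.29 for Cyp3a13 and 1.22 for Tnfrsf11b with falls. Where both lines moved the same way and NaJa-G further, it was 4.96 for Serpinb1a, 2.78 for 4930438A08Rik and 2.69 for Tgfb2 with rises, and -3.30 for Areg, -2.82 for Slco4a1 and -2.44 for Etv4 with falls. Where NaJa-D moved further, it was 1.77 for Nrcam, 1.64 for Slc26a9 and 1.41 for Nptx1 with falls, and -0.90 for Krt13, -0.74 for Cdk18 and -0.72 for Tcirg1 with rises.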

How the results depend on the processing

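Of 3325 values for 133 named genes under 25 alternative fits and thresholds, 3250 kept their side of the threshold, 63 no longer passed and 12 newly passed. The sign changed for 3 values of 2 genes, none of them called in either fit. Beyond what the values below show, the cause of changes in the counts was not tested. The main counts were 127 (up in NaJa-G, down in NaJa-D), 63 (the reverse), 426 (NaJa-D alone) and 74 (same direction, larger in NaJa-D). With DESeq2 the second was 106 and the NaJa-D alone count 645. With library size only the second was 105. With library quality weights the 4 counts were 535, 766, 1104 and 502, the called differences 8281 and the NaJa-F calls 6756. With only the 12 libraries in the fit they were 65, 41, 187 and 40. Without both doubted libraries they were 239, 208, 930 and 156. At an adjusted p of 0.05 they were 256, 178, 850 and 207, and the day 5 differences 4642. With an absolute log2 value of at least 1, called differences numbered 1345, NaJa-G responses 2883, NaJa-D responses 1103, the 4 counts 60, 32, 104 and 13, NaJa-G alone 657, same direction and larger in NaJa-G 427, day 5 differences 1034, NaJa-F responses 691 and DMSO differences of day 5 2978. Leaving out each of the 12 libraries in turn gave 4350 to 6412 differences and ranges of 83 to 304, 35 to 237, 205 to 1072 and 52 to 222 for the 4 counts. Leaving out NaJa-D encorafenib replicate 3 gave the highest of each (304, 237, 1072 and 222). The first count was 83 without NaJa-D encorafenib replicate 1. The second was 35 without NaJa-D DMSO replicate 1 or replicate 3, 39 without NaJa-D encorafenib replicate 1 and 113 without NaJa-G DMSO replicate 1. The NaJa-D alone count was 205 and 250 without NaJa-D encorafenib replicates 1 and 2. With a GC trend removed there were 5561 differences, and with edgeR 5485. The deviations of same-numbered libraries from their groups had r from -0.554 to 0.347 (18 pairs, median 0.0404, 7 over 0.1). Those of libraries with different numbers had r from -0.5 to 0.647 (36 pairs, median -0.0276, 10 over 0.1). Deviations within a group of 3 depend on each other and single libraries enter many pairs, so this cannot decide whether the numbers pair the libraries. With the replicate block 5154 differences were called, with 125 and 62 opposite genes.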

Other observations

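Other opposite genes, picked after their values were seen, included signalling genes that no list held. Bmp3, a BMP antagonist, had 0.68, 0.522 and 0.749 CPM in DMSO and 5.05, 5.56 and 5.56 CPM in encorafenib in NaJa-G, against 2.03, 1.9 and 1.75 CPM in DMSO and 1.14, 1.23 and 1.33 CPM in encorafenib in NaJa-D, with log2 fold changes of 3.06 in NaJa-G and -0.62 in NaJa-D. Encorafenib libraries were the high ones in NaJa-G and the low ones in NaJa-D, and at day 5 the difference was 3.03. Ptch1, the Hedgehog receptor that is also a Hedgehog target, had 94.7, 89.6 and 81.3 CPM in DMSO and 195, 193 and 185 CPM in encorafenib in NaJa-G, against 84.4, 96.3 and 94.4 CPM in DMSO and 62.8, 64.4 and 71.8 CPM in encorafenib in NaJa-D, a difference of 1.58 (SE 0.10, adjusted p = 1.41e-12). Ptprb, a receptor tyrosine phosphatase best known from endothelium, had log2 fold changes of 0.85 in NaJa-G and -0.43 in NaJa-D, the adhesion molecule Kirrel3 of 1.29 in NaJa-G and -0.36 in NaJa-D and the matrix protein Thsd4 of 1.21 in NaJa-G and -0.28 in NaJa-D. The class was kept in 23 of 23 fits for Bmp3, Ptch1, Ptprb and Kirrel3 and in 20 for Thsd4.

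Also picked after their values were seen were genes of the other direction. Il1r1, the interleukin 1 receptor, had 39.5, 38.6 and 39.1 CPM in DMSO and 16.6, 17.6 and 16.8 CPM in encorafenib in NaJa-G, against 28.8, 32.2 and 31.4 CPM in DMSO and 44.3, 43.6 and 39.5 CPM in encorafenib in NaJa-D. It fell in NaJa-G and rose in NaJa-D, with a difference of -1.66 (SE 0.09, adjusted p = 6.34e-14) at day 1 and -1.30 at day 5. Ccr1, a chemokine receptor, had log2 fold changes of -2.52 in NaJa-G and 0.31 in NaJa-D, the galectin 3 ligand Lgals3bp of -0.52 in NaJa-G and 0.83 in NaJa-D, the enkephalin precursor Penk of -0.44 in NaJa-G and 1.07 in NaJa-D and the cytokine signalling inhibitor Socs2 of -0.86 in NaJa-G and 0.36 in NaJa-D. The class was kept in 23 of 23 fits for Il1r1 and Lgals3bp, in 22 for Penk, in 19 for Socs2 and in 18 for Ccr1, and without both doubted libraries Socs2 was called in NaJa-G alone.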
